A study of Mus musculus with 12 samples.

Results

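The genes described here are 10 acute phase genes, Saa1, Saa2, Saa3, Saa4, Hp, Hpx, Orm1, Orm2, Lcn2 and Crp, chosen by name as classical plasma proteins of the acute phase, out of 24062 gene symbols counted in each library. They were followed in 12 RNA-seq libraries, 1 per mouse and 3 per group, from mice fed a control diet or a No-Trp diet, which lacks the essential amino acid tryptophan (Trp), for 21 days. MYC-ON livers came from male LAP-tTA/TRE-MYC mice on the FVB background, in which the LAP promoter drives the tTA activator in hepatocytes and tTA switches on a human MYC transgene once doxycycline is withdrawn at birth. Breeders received 1 mg/mL of doxycycline in their water, so by design the MYC transgene was active in the livers of both diets. The labels state an age of 45 days for MYC-ON males in general and none for each of these livers. HCC53N xenografts came from a line of mouse liver cancer cells, derived from a tumor without p53 in hepatocytes and with mutant Nras, which was injected under the skin of the flanks of NOD SCID mice. The study's methods name female hosts and a repeat of the work in males, and the labels do not give the sex of these hosts. The labels of the tumors also carry the words MYC ON, and whether those cells hold a MYC transgene was not settled here. The xenografts are 1 line in all 6 hosts, and the hosts lack T and B cells but still hold other immune cells, adipose tissue and liver. How well those immune cells work in this strain was not examined here. Tumor and host are both mouse, so reads of the tumor cells and of the host's cells cannot be told apart.

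Reads counted on genes ranged from 14660963 to 26085349 per library. The libraries that stood apart are named here because they touch the results. Control liver 102 held a summed level of 12 hepatocyte markers of 39963 CPM (reads of a gene per 1e6 reads on genes, scaled by the TMM method of edgeR), against 12364 in control liver 101 and 9681 in control liver 103. Control liver 101 held 12.1% of its counts on Rn45s, a precursor of ribosomal RNA. Trp53, the gene removed from the parent tumor of HCC53N, had 314 to 628 reads in the xenografts and 760 to 3332 in the livers. Livers 101 and 108 and control xenografts 41 and 43 carry a mark of resubmission, so 2 of 3 control xenografts and 0 of 3 No-Trp xenografts carry it, and in the xenografts mark and diet can be told apart only through control xenograft 40. Between replicates the chi-square of the counts per degree of freedom was 34.6 to 274, so no library was a copy of another.

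The acute phase response is the change in plasma proteins that follows infection, injury or inflammation. Interleukin 6, acting through its receptor, gp130 and STAT3, and interleukin 1 and tumor necrosis factor, acting through NF-kB, drive it in hepatocytes together with transcription factors of the C/EBP family. Serum amyloid A proteins ride on high density lipoprotein, haptoglobin (Hp) carries free hemoglobin, hemopexin (Hpx) carries free heme, orosomucoids (Orm) bind small molecules, and lipocalin 2 (Lcn2) binds the siderophores with which bacteria take up iron. Saa3 and Lcn2 are also made outside the liver, by macrophages, neutrophils, epithelia and adipocytes, and Hp and Orm1 by adipocytes. C-reactive protein (Crp) is a minor acute phase protein in the mouse, in which serum amyloid P (Apcs) takes its place.

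The serum amyloid A genes lie side by side on mouse chromosome 7 (GENCODE M21 on GRCm38, mm10): Saa3 at chr7:46711998-46715700, Saa4 at chr7:46727998-46732603 and Saa1 at chr7:46740497-46742980 on the minus strand, and Saa2 at chr7:46751790-46754313 on the plus strand. Orm1 and Orm2 lie on chromosome 4 (chr4:63344560-63348163 and chr4:63362449-63365878, plus strand) with Orm3 between them. The other genes stand alone, Hp at chr8:109575128-109579172, Hpx at chr7:105591613-105600137 and Lcn2 at chr2:32384633-32388252 on the minus strand and Crp at chr1:172698055-172833031 on the plus strand, where the span of Crp also holds the gene model Gm38051 on the same strand, without overlap of their exons. Close copies matter here because reads that fit several places may have been left out of the counts or put on the wrong copy. The coding sequences of Saa1 and Saa2, 366 bases each, differed at 18 positions and were 95.1% identical, and 9.11% of the 50-base windows of the Saa1 transcript also occurred in that of Saa2. Saa3 was 75.9% and Saa4 65.0% identical with Saa1, and Orm1 and Orm2 were 89.9% identical, with 20.4% of the windows of Orm1 also in Orm2. The first 60 coding bases, which encode the start of the protein with its signal peptide, are printed for the 4 serum amyloid A genes as the GENCODE transcripts give them, 5′ to 3′, with capitals at each position that differs from Saa1.
Saa1 coding start: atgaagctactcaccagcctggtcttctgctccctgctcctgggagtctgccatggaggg
Saa2 coding start: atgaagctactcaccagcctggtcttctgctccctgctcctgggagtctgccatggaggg
Saa3 coding start: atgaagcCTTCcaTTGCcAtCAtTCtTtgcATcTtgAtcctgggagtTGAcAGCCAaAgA
Saa4 coding start: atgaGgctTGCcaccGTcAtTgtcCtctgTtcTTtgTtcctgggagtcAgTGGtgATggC
In this stretch Saa2 matched Saa1 at every base, Saa4 differed at 20 positions and Saa3 at 28. Most of the remaining Saa1 transcript tells the 2 genes apart, so Saa1 and Saa2 are given both singly and as a sum.

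RefSeq promoter windows (GRCm38.p6, 250 bases before the transcription start and 50 after it) were at hand for 8 of the 10 genes. Hp and Orm1 have no entry in the table used. Each window was searched on both strands for the letters TTNNGNAA (C/EBP), TTCNNNGAA (STAT), GGGNNTTCC and GGGNNTTTC (NF-kB) and GTTAATNAT (HNF1). The C/EBP letters were found in 8 of the 8 windows, against 40.7% of all 32851 windows. The other letters were found in 0 of 8, against 8.3% (STAT), 5.82% and 4.36% (NF-kB) and 0.801% (HNF1) of all windows, which says only that these exact letters are not in these windows. The upstream bases are printed for Saa1 and Saa2, which fell together in the livers, for Saa3, the serum amyloid A gene with the highest level in the xenografts, and for Hpx, which rose in the livers. They run 5′ to 3′ on the strand of the gene and end at the base before the start, and capitals mark the C/EBP letters, which overlap no other motif searched. The windows are chr7:46742981-46743230 (minus) for Saa1, chr7:46751583-46751832 (plus) for Saa2, chr7:46715677-46715926 (minus) for Saa3 and chr7:105600117-105600366 (minus) for Hpx.
Saa1 promoter: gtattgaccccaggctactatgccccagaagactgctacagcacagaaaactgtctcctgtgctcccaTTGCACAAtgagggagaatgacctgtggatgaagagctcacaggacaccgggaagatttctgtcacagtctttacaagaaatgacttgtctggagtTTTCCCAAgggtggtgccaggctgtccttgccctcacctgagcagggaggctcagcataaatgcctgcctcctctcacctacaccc
Saa2 promoter: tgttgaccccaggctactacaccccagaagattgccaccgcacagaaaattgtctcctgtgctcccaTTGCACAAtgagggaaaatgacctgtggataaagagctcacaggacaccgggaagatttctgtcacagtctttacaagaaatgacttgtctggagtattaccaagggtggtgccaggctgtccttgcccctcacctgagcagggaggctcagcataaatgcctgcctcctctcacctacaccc
Saa3 promoter: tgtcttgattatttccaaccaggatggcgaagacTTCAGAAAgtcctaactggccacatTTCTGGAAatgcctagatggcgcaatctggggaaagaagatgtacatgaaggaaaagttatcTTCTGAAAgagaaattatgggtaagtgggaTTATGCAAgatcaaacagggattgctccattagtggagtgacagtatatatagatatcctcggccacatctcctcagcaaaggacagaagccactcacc
Hpx promoter: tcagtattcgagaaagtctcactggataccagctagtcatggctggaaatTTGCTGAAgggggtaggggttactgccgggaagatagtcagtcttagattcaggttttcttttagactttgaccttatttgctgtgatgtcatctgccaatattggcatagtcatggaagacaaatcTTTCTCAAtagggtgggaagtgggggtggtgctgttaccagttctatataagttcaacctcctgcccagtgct
Saa1 and Saa2 shared 94.8% of aligned upstream positions and the C/EBP match TTGCACAA, while Saa1 alone of the pair held the second match TTTCCCAA. Saa3 held 4 matches and shared 48.2% of aligned positions with Saa1. Hpx held 2.

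Levels were compared between genes per kilobase of the principal transcript, as CPM per kilobase, without a test. In the control livers the order was Hpx (783 ± 642, SD, n = 3), Hp (594 ± 539), Saa4 (90.5 ± 46.7), Orm1 (60.6 ± 65.6), Crp (59.1 ± 48.5), Lcn2 (35.9 ± 16.4), Saa3 (25.8 ± 7.19), Saa1 (12.1 ± 6.91), Saa2 (4.94 ± 3.26) and Orm2 (1.67 ± 1.10). From Hpx down to Saa3, neighbours in this order lay within the larger of their SDs. The step from Saa3 to Saa1 exceeded both SDs, and those from Saa1 to Saa2 and from Saa2 to Orm2 were about as large as the larger SD. In the No-Trp livers Hpx (3085 ± 979) and Hp (1109 ± 80.7) again led, followed by Crp (156 ± 59.6) and Lcn2 (90.9 ± 59.1), while Saa2 (0.175 ± 0.304) was last. The control xenografts also had Hpx (110 ± 104) and Hp (30.8 ± 14.0) first, with Saa3 (7.81 ± 2.52) next and Saa1 and Saa2 last. In the No-Trp xenografts Hp (247 ± 103) stood above Hpx (125 ± 66.1), and Saa3 (68.8 ± 47.9) and Lcn2 (34.5 ± 14.5) followed. The heme and hemoglobin carriers Hp and Hpx together took 75.7% to 85.8% of the reads of the 10 genes in the control livers and 90.4% to 93.8% in the No-Trp livers. All 10 genes together took 0.119% to 0.436% of gene reads in the control livers, 0.433% to 0.574% in the No-Trp livers, 0.0124% to 0.0455% in the control xenografts and 0.0575% to 0.0883% in the No-Trp xenografts.

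**Figure D1:**
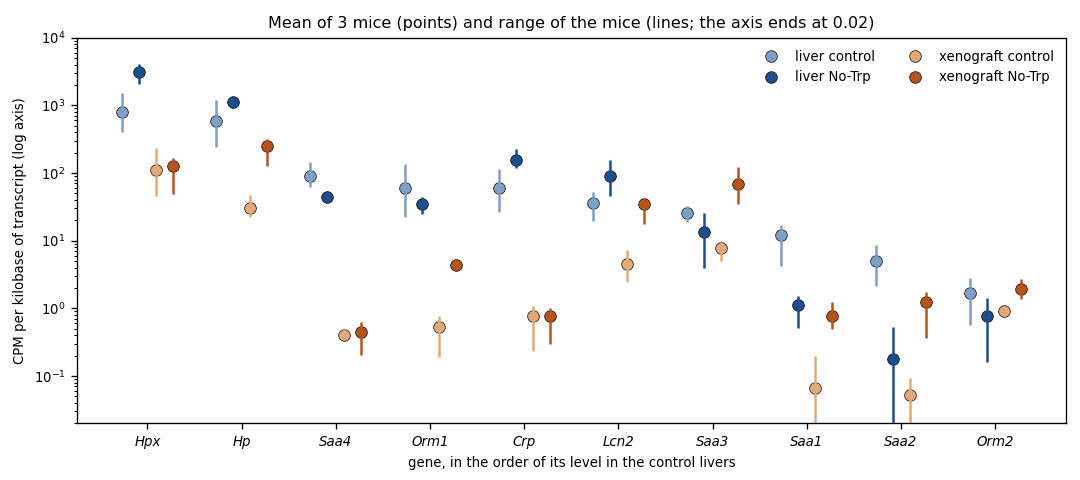
Mean CPM per kilobase of transcript (points, log axis) and the range of the 3 mice (lines) of each acute phase gene in the 4 groups. Hpx and Hp lead in every group, and the liver points lie above the xenograft points on the control diet for every gene.

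The first comparison asked how the genes differed between MYC-ON livers of mice fed the 2 diets. They did not move as a group. The main inducible serum amyloids Saa1 and Saa2 fell and the heme carrier Hpx rose, while the other 7 genes did not pass both thresholds (edgeR, adjusted p no higher than 0.05 and a change of at least 1 on the log2 scale). All 10 genes were tested, but Saa1 and Saa2 passed the filter on low counts only with the control livers, since of the No-Trp livers 2 for Saa1 and 0 for Saa2 reached its level of 0.464 CPM in unscaled library totals. Of the 10 genes 1 was called higher, against 9.28% of the 14122 genes tested, and 2 were called lower, against 7.27%, and nothing is read from the latter count because the filter favours a difference in both genes. The median log2 fold change of the 10 genes was −0.87, against −0.0031 for all genes tested. Saa1 and Saa2 enter this median, so nothing is read from it either. A lower level of a gene in a whole liver can mean fewer cells that make it or less RNA per cell, which cannot be told apart in such libraries.

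Saa1 stood at 2.56, 10.5 and 8.99 CPM in control livers 101, 102 and 103 and at 0.801, 0.923 and 0.311 CPM in No-Trp livers 105, 107 and 108. Every No-Trp liver lay below every control liver, and the means differed 10.8-fold. The log2 fold change was −3.38 (SE 0.64, adjusted p = 0.01998). Saa2 stood at 1.399, 2.705 and 5.55 CPM in the control livers and at 0.343, 0 and 0 CPM in the No-Trp livers. These are 216 reads against 6, a ratio of 26.4 (exact 95% interval 11.9 to 72.8, counting error only), and its log2 fold change was −4.61 (SE 1.05, adjusted p = 0.0263). The groups did not overlap. The sum of the pair, which does not depend on how reads were split between the copies, changed by −3.68 on the log2 scale (SE 0.65, adjusted p = 0.0190). Both levels are low for genes that can be among the most abundant of an inflamed liver. The calls rested on the number of mice: without control liver 103 the adjusted p was 0.0873 for Saa1 and 0.0940 for Saa2, and without No-Trp liver 105 it was 0.0608 and 0.0528. Saa2 also lost its call without liver 101 (0.0556), 107 (0.0556) or 108 (0.0513).

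The other serum amyloids did not pass. Saa3, the isoform also made by macrophages and other cells outside the liver, stood at 14.4, 10.3 and 18.3 CPM in the control livers and at 5.78, 2.15 and 14.1 CPM in the No-Trp livers. No-Trp liver 108 lay within the control range, and the log2 fold change was −0.96 (95% interval −2.41 to 0.48, adjusted p = 0.273). Saa4, which is made at a steady level rather than induced, stood at 130, 302 and 136 CPM in the control livers and at 92.8, 81.6 and 104 CPM in the No-Trp livers. Every No-Trp liver lay below every control liver, and liver 102 was the highest. The log2 fold change of Saa4 was −1.01 (95% interval −1.80 to −0.22, adjusted p = 0.0633), and DESeq2 (adjusted p = 0.0243), library totals in place of TMM (0.0410) and a fit over all 12 libraries (0.0377) called it. DESeq2 called 8.99% of all genes with an adjusted p lower in the livers. A control range above all No-Trp livers was seen in Saa1, Saa2 and Saa4, 3 of 10 genes, against 25.0% of all genes tested.

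Hpx, the plasma carrier of heme, stood at 643, 2285 and 594 CPM in the control livers and at 4758, 6019 and 3094 CPM in the No-Trp livers. All No-Trp livers were higher, and liver 102 was the highest control. Its log2 fold change was 2.00 (SE 0.60, adjusted p = 0.0478). Hp, the carrier of hemoglobin, stood at 434, 1634 and 327 CPM in the control livers and at 1434, 1616 and 1423 CPM in the No-Trp livers. Control liver 102 was the highest of all 6 livers, so the groups overlapped, and the log2 fold change was 0.92 (95% interval −0.45 to 2.30, adjusted p = 0.271). Without liver 102, Hp was called at 1.97 (adjusted p = 0.00464) and Hpx remained called at 2.90 (adjusted p = 0.00476). The call of Hpx was lost without any other single liver (adjusted p from 0.0593 without 108 to 0.157 without 103), with library totals (0.0577) and in the fit over all libraries (0.0609).

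Orm1, the main orosomucoid, stood at 18.0, 106 and 17.1 CPM in the control livers and at 27.1, 34.6 and 19.3 CPM in the No-Trp livers. Control liver 102 stood far above every other liver, and it decides the sign. The log2 fold change was −0.77 with it (95% interval −2.48 to 0.94, adjusted p = 0.453) and 0.62 without it (adjusted p = 0.140). Orm2 was low in every liver, from 0.434 to 2.14 CPM in the control livers and from 0.123 to 1.09 CPM in the No-Trp livers, with a log2 fold change of −1.13 (95% interval −3.00 to 0.74, adjusted p = 0.319). The groups of both genes overlapped. Because close copies may share reads, the sum of Orm1, Orm2 and Orm3 was also fitted, and it gave −0.78 (adjusted p = 0.431).

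Lcn2, the siderophore binder, stood at 32.4, 18.1 and 48.2 CPM in the control livers and at 63.6, 41.7 and 144 CPM in the No-Trp livers. Control liver 103 lay above No-Trp liver 107, and the log2 fold change was 1.35 (95% interval 0.09 to 2.60, adjusted p = 0.102). Crp stood at 44.8, 195 and 61.0 CPM in the control livers and at 215, 381 and 198 CPM in the No-Trp livers. Every No-Trp liver was higher, with liver 102 just under liver 108, and the log2 fold change was 1.43 (95% interval 0.05 to 2.80, adjusted p = 0.110). DESeq2, which called 10.6% of all genes with an adjusted p higher in the livers, called both genes (adjusted p = 0.0337 and 0.0343), and Crp was called at 2.32 without liver 102 (adjusted p = 0.00634). All No-Trp livers lay above all control livers in 2 of 10 genes, Hpx and Crp, against 23.6% of all genes tested.

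**Figure D2:**
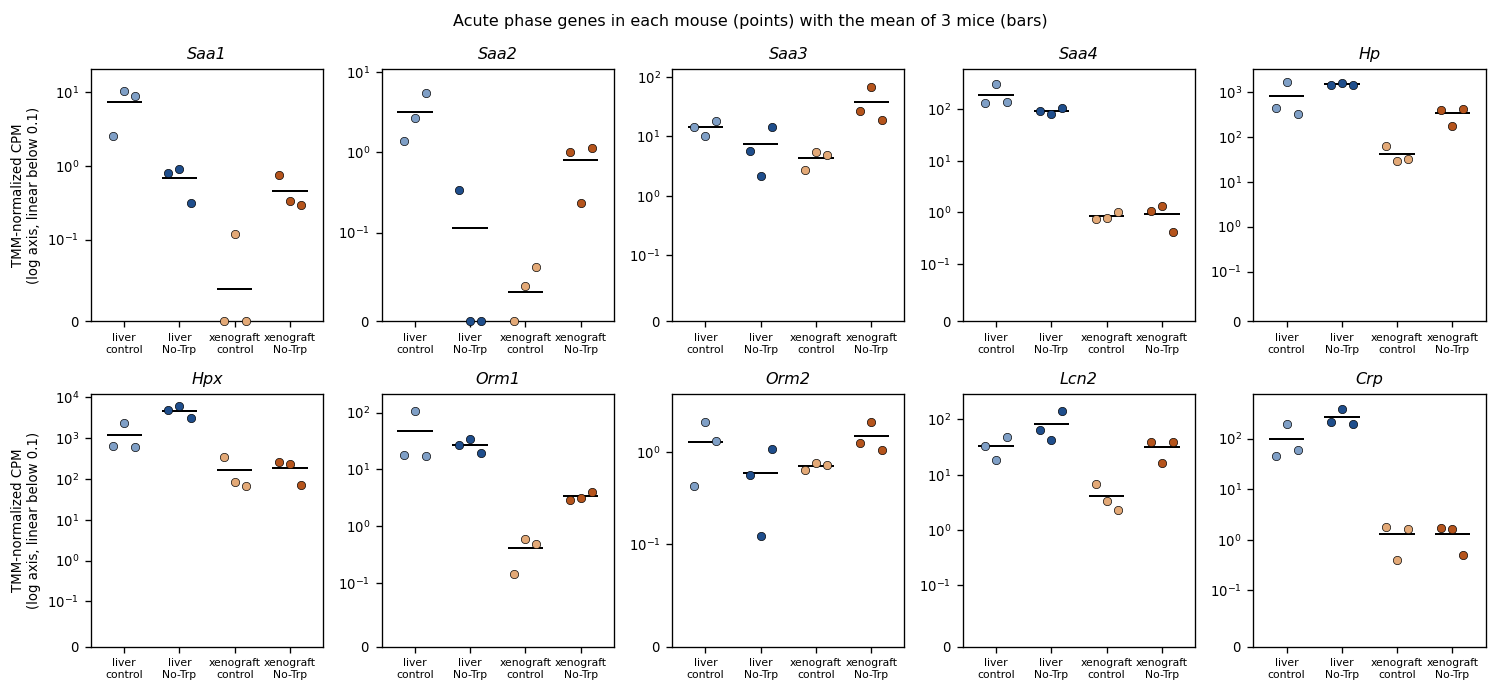
TMM-normalized CPM of each acute phase gene (log axis, linear below 0.1) in each of the 12 mice (points), with the mean of the 3 mice of a group (bars). In the livers the No-Trp points of Saa1 and Saa2 lie below the control points and those of Hpx above them. In the xenografts the No-Trp points of Saa3, Hp, Orm1 and Lcn2 lie above the control points.

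Markers of several cell types moved with these results. Of 11 tested hepatocyte markers, 6 were called higher in the No-Trp livers (Tat, Tdo2, Apoc3, Hpd, Ttr and Cps1, by 1.70 to 4.43 on the log2 scale), and 0 lower. The summed level of the list of 12 was 9681 to 39963 CPM in the control livers and 53564 to 127467 CPM in the No-Trp livers, without overlap, beside the rise of Hpx. Of 11 neutrophil markers, Elane was called lower (−3.38, adjusted p = 0.0291), 10 of 11 had a negative log2 fold change, and the sum was 201 to 263 CPM in the control livers and 13.7 to 129 CPM in the No-Trp livers. Liver 108 held the most neutrophil RNA of the No-Trp group and also the most Saa3 and Lcn2. The control livers held more neutrophil RNA than any No-Trp liver. Their Lcn2 was 18.1 to 48.2 CPM, against 41.7 to 144 CPM in the No-Trp livers, and their Saa3 10.3 to 18.3 against 2.15 to 14.1 CPM. The erythroid markers Alas2 (−3.65) and Slc4a1 (−5.53) were called lower, and Hba-a1 and Hbb-b1 were at 0 reads in all livers. Nothing is read from these counts of 0, since the erythroid sum reached 539 CPM in control liver 102. The macrophage sum overlapped between the diets, at 807 to 1176 against 582 to 1242 CPM. Of 8 endothelial markers 3 were called higher (Clec4g 1.97, Fcgr2b 1.62 and Tek 1.18) and 0 lower, and their sum was 111 to 213 CPM in the control and 253 to 404 CPM in the No-Trp livers, again without overlap. The part of these cells in the levels of the acute phase genes was not tested.

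The second comparison asked the same of HCC53N xenografts, and here Saa1, Saa2 and Saa3 lay higher, not lower, on the No-Trp diet. Saa3, Hp, Orm1 and Lcn2 were 8.80, 8.001, 8.18 and 7.69 times as high in the mean of the No-Trp xenografts as in that of the control xenografts, without overlap between the groups, but none of them passed the adjusted threshold in edgeR. The intervals of Saa4, Hpx and Crp held 0 and large differences in either direction. Of the 10 genes 8 passed the filter on low counts, and Saa1 and Saa2 did not. Of these 8, Orm1 and Crp reached the level of the filter in 3 of 3 No-Trp tumors and 2 of 3 control tumors, and the other 6 in all 6. edgeR called 0 of the 8 higher, against 0.245% of the 14704 genes tested, and 0 lower, against 0.116%. Of the 8, 4 had an unadjusted p under 0.05. The share of all genes with such a p was not worked out, here or for the gene lists below. DESeq2, which gave no adjusted p for Saa1, called 5 of the other 9 higher, Saa2, Saa3, Hp, Orm1 and Lcn2, against 1.63% of the 15342 genes to which it gave an adjusted p. The median log2 fold change of the 8 genes was 1.99, against −0.0045 for all genes tested, and the filter favours a rise in Orm1, which enters this median. With 3 mice against 3, a two-sided exact permutation test of a single gene cannot give a p under 0.1.

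Saa3 stood at 2.75, 5.39 and 4.87 CPM in control xenografts 40, 41 and 43 and at 26.7, 68.6 and 19.2 CPM in No-Trp xenografts 35, 36 and 37. The lowest No-Trp tumor was well above the highest control tumor, and tumor 36 was the highest. The log2 fold change of Saa3 was 3.12 (SE 0.53, 95% interval 1.87 to 4.37, adjusted p = 0.0624). No edgeR fit with 1 tumor left out called it (adjusted p from 0.0502 to 0.176). Saa3 held 78.9% to 84.9% of all serum amyloid A reads of the control xenografts and 90.3% to 97.3% of those of the No-Trp xenografts, against 2.54% to 11.96% in the livers, where Saa4 predominated.

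Saa1 had 0, 3 and 0 reads in control xenografts 40, 41 and 43 and 21, 10 and 7 reads in No-Trp xenografts 35, 36 and 37, a ratio of 9.66 (exact 95% interval 3.07 to 48.9, counting error only). Saa2 had 0, 1 and 1 reads in the control xenografts and 28, 7 and 27 reads in the No-Trp xenografts, a ratio of 23.6 (6.28 to 200). Every No-Trp tumor exceeded every control tumor for both. In the fit without a filter on low counts, the log2 fold change was 3.20 for Saa1 (adjusted p = 0.218) and 4.40 for Saa2 (adjusted p = 0.0823), and that of their sum in the main fit was 3.91 (adjusted p = 0.0973). Levels stayed near or under 1 CPM. Saa4 was at 0.736, 0.798 and 1.04 CPM in the control and 1.09, 1.33 and 0.424 CPM in the No-Trp xenografts, which overlapped (log2 fold change 0.14, 95% interval −1.06 to 1.35, adjusted p = 0.918).

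Hp stood at 63.2, 29.6 and 31.7 CPM in control xenografts 40, 41 and 43 and at 398, 172 and 425 CPM in the No-Trp xenografts. The lowest No-Trp tumor, 36, lay above the highest control tumor, 40, and the log2 fold change was 2.99 (SE 0.45, 95% interval 1.93 to 4.05, adjusted p = 0.0506). This value is next to the threshold, and Hp was called with RLE factors (adjusted p = 0.0493), with library totals (0.04995) and with Rn45s left out (0.0483). It was also called without tumor 36 (3.30, adjusted p = 0.0229) and without tumor 40 (3.42, adjusted p = 0.0421). With another tumor left out, the adjusted p of Hp rose to as much as 0.160. Over all alternatives its log2 fold change was 2.38 to 3.42. Hpx, by contrast, stood at 345, 83.0 and 68.2 CPM in the control and at 253, 235 and 72.7 CPM in the No-Trp xenografts. The groups overlapped widely and the log2 fold change was 0.16 (95% interval −1.54 to 1.85, adjusted p = 0.935), an interval that holds large differences in either direction.

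Orm1 stood at 0.147, 0.598 and 0.487 CPM in the control xenografts and at 2.94, 3.20 and 3.95 CPM in the No-Trp xenografts, with little spread among the latter. The log2 fold change was 2.997 (SE 0.54, 95% interval 1.77 to 4.22, adjusted p = 0.0551), and the fit without a filter called it (adjusted p = 0.0275). No edgeR fit with 1 tumor left out called Orm1 (adjusted p from 0.0712 to 0.160). Orm2 stood at 0.637, 0.758 and 0.731 CPM against 1.27, 2.14 and 1.06 CPM, again without overlap, with a log2 fold change of 1.05 (95% interval −0.01 to 2.11, adjusted p = 0.298). The sum of the orosomucoids gave 1.17 (adjusted p = 0.167). Lcn2 stood at 6.72, 3.35 and 2.25 CPM in the control and at 39.2, 16.2 and 39.3 CPM in the No-Trp xenografts, again with tumor 36 lowest and tumor 40 highest of their groups. Its log2 fold change was 2.93 (SE 0.50, 95% interval 1.76 to 4.10, adjusted p = 0.0594), and it was called without tumor 36 (adjusted p = 0.0424) and without tumor 40 (adjusted p = 0.0421). With another tumor left out, the adjusted p of Lcn2 rose to as much as 0.163. Crp stood at 1.81, 0.399 and 1.65 CPM in the control and at 1.71, 1.63 and 0.509 CPM in the No-Trp xenografts, and its log2 fold change was close to 0 with a 95% interval from −1.96 to 1.96.

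All No-Trp xenografts lay above all control xenografts in 7 of 10 genes (Saa1, Saa2, Saa3, Hp, Orm1, Orm2 and Lcn2, the first pair not among the genes tested), against 10.8% of the genes tested, and all lay below in 0 of 10, against 11.8%. These tumors also differed in adipocyte markers. Of the 8 adipocyte markers tested, Retn (6.27), Plin1 (5.48), Cidec (4.86) and Adipoq (4.70) were called higher in the No-Trp xenografts, all 8 had an unadjusted p under 0.05, and the sum of the list was 21.3 to 79.7 CPM in the control and 436 to 900 CPM in the No-Trp xenografts. Of the No-Trp tumors, 36 had the lowest adipocyte sum, the lowest Hp and the lowest Lcn2, but the highest Saa3. The control tumors had another order. Tumor 41 had the highest adipocyte sum (79.7 CPM) and the lowest Hp, while tumor 40 (29.0 CPM) had the highest Hp and Lcn2. The neutrophil sum was 50.7 to 86.6 CPM against 84.4 to 120 CPM. Mmp9 made up most of it, with means of 47.8 CPM in the control and 62.6 CPM in the No-Trp xenografts. Ngp, Camp, Mpo and Elane were too low to be tested. The macrophage sums overlapped (665 to 988 against 659 to 1023 CPM). Of the 7 neutrophil markers tested, 7 had a positive log2 fold change (median 1.16). Of these, 3 had an unadjusted p under 0.05 in edgeR and 0 were called. The hepatocyte sum was 170 to 628 CPM against 242 to 463 CPM far under the sum of any liver. Of the 8 endothelial markers 0 were called, 7 had a positive log2 fold change (Lyve1 2.65, adjusted p = 0.0506), and the sum was 96.5 to 187 CPM in the control and 203 to 305 CPM in the No-Trp xenografts, without overlap. The part of adipocytes, endothelial cells and other host cells in the levels of Saa3, Hp, Orm1 and Lcn2 was not tested.

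**Figure D3:**
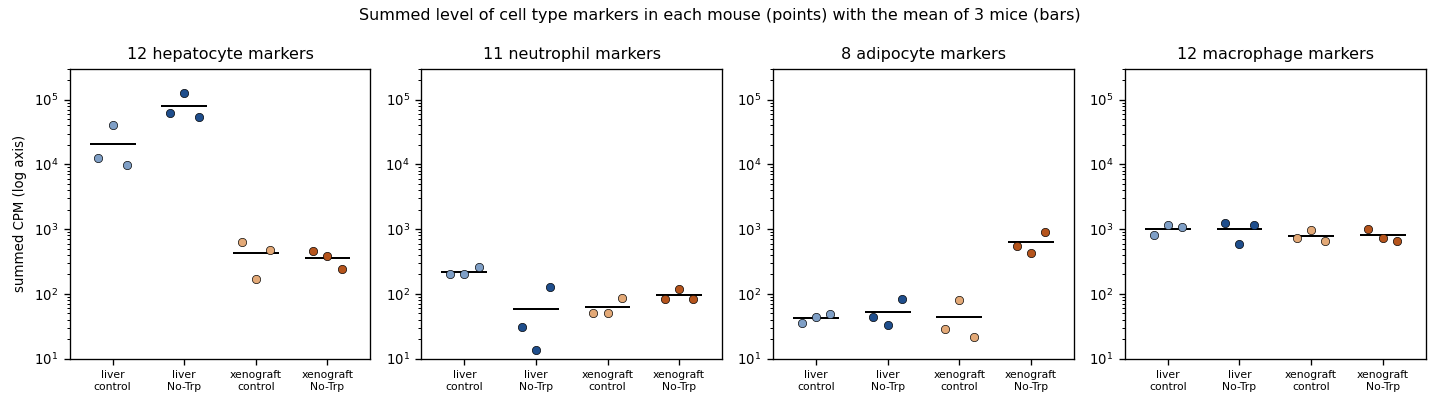
Summed CPM (log axis) of the markers of 4 cell types in each mouse (points), with the mean of 3 mice (bars). The adipocyte sum of the No-Trp xenografts (436 to 900 CPM) lies above that of every other sample, and the hepatocyte sum of the No-Trp livers lies above that of the control livers.

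Whether the diet effect itself differed between the models was tested as the interaction of model and diet, fitted on the 12 libraries together, in which all 10 genes passed the filter, Saa1 and Saa2 with 3 of 3 libraries at its level in the control livers alone. The effect was more positive in the xenografts for 4 genes, Saa1 (difference of log2 fold changes 6.56, SE 1.202, adjusted p = 0.00922), Saa2 (9.02, SE 1.60, adjusted p = 0.00826), Saa3 (4.11, SE 0.89, adjusted p = 0.0154) and Orm1 (3.79, SE 0.99, adjusted p = 0.0278). This compares with 6.7% of all 15472 genes tested, and 0 of 10 were called in the other direction, against 6.01%. Nothing is read from the count of 4, because the filter favours a positive difference in Saa1 and Saa2. The sizes for Saa1 and Saa2 rest on 3 and 2 reads in the control xenografts and depend on the prior count of the fit. Their sum gave 7.60 (SE 1.12, adjusted p = 0.00515). With at least 10 counts required in every library, Saa1, Saa2, Orm1 and Orm2 were not tested and of the other 6 genes Saa3 was called (4.11, adjusted p = 0.0115). Hp (2.10, adjusted p = 0.0921), Orm2 (2.21, 0.138), Lcn2 (1.60, 0.179), Saa4 (1.22, 0.164), Hpx (−1.80, 0.240) and Crp (−1.35, 0.350) did not pass. The difference of Orm1 fell to 2.39 without control liver 102 (adjusted p = 0.0128). Orm1 lost its call without No-Trp liver 105 or 107, No-Trp xenograft 36 or 37, or control xenograft 40 or 43 (adjusted p from 0.0510 to 0.0667) and with the mark of resubmission as a covariate (0.0790), and with the sum of the 3 orosomucoids the difference was 1.99 (adjusted p = 0.127). With the 4 marked libraries left out, the interaction called 0 of the 10 genes, and Saa1 (9.88, adjusted p = 0.0572), Saa2 (11.67, 0.0838), Saa3 (5.65, 0.0802) and Orm1 (5.45, 0.0991) kept their sign. In that setting, which leaves 1 control xenograft (40), 6 of all genes were called higher and 9 lower.

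**Figure D4:**
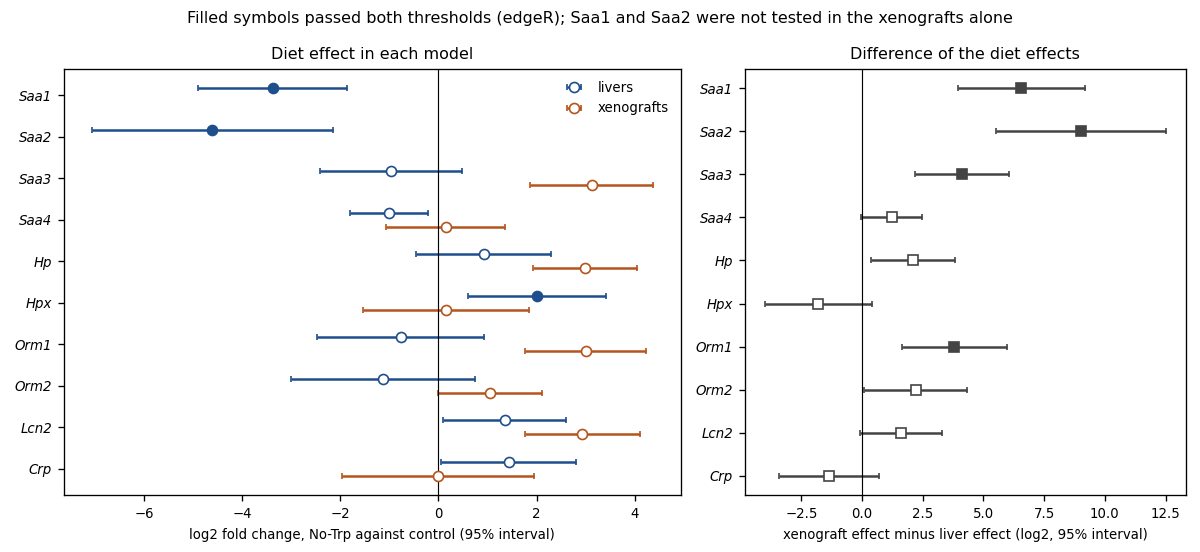
Log2 fold change of each acute phase gene, No-Trp against control, with its 95% interval in livers and xenografts (left), and the difference of the 2 effects (right). Filled symbols passed both thresholds. Saa1, Saa2, Saa3 and Orm1 have a difference above 0 that passed, and Hpx and Crp have one below 0 that did not.

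Between the models the levels differed widely, and model, strain, site and tumor genotype differ together and cannot be told apart. Sex may differ with them, since the livers are from males and the labels give no sex for the xenograft hosts. On the control diet 9 of the 10 genes were lower in the xenografts, against 20.2% of all genes tested, and 0 were higher, against 23.3%. Of the 9, Saa1 and Saa2 passed the filter only with the control livers, which favours a lower value in the xenografts for both. The largest differences were those of Saa4 (−7.79 on the log2 scale, SE 0.47), Saa1 (−7.12, SE 0.95), Orm1 (−6.80, SE 0.83), Saa2 (−6.40, SE 1.2003) and Crp (−6.32, SE 0.76). Saa3 differed least of the genes called (−1.73, SE 0.63, adjusted p = 0.0325) and lost its call when control liver 101 (0.0602) or 103 (0.0868), control xenograft 40 (0.104), 41 (0.0548) or 43 (0.0650) was left out. Orm2 was not called (−0.86, 95% interval −2.33 to 0.61, adjusted p = 0.293). On the No-Trp diet 6 genes were lower in the xenografts, Crp (−7.66), Saa4 (−6.58), Hpx (−4.63), Orm1 (−3.01), Hp (−2.17) and Lcn2 (−1.40), against 19.1% of all genes tested. Here 2 were higher, against 24.5%. These were Saa3 (2.38, SE 0.63, adjusted p = 0.00671) and Saa2 (2.62, SE 1.05, adjusted p = 0.0480), and the latter lost its call without any of livers 102, 103, 107 and 108 and xenografts 35, 37, 40, 41 and 43 (adjusted p up to 0.136). Lcn2 lost its call without livers 101, 105 or 108 or xenografts 35, 36, 37 or 41 (adjusted p up to 0.243).

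The rest of the acute phase program was followed through lists of named genes, whose counts stand against 9.28% of all genes called higher and 7.27% lower in the livers, and 0.245% and 0.116% in the xenografts. Of 19 other positive acute phase genes tested in the livers, 5 were higher on the No-Trp diet and 0 were lower, and the median log2 fold change was 1.39. Apcs, the pentraxin that takes the place of Crp in the mouse, had the largest rise, from 37.0 to 84.6 CPM in the control livers to 1408 to 3151 CPM in the No-Trp livers (5.28, SE 0.49, adjusted p = 0.00761). Hamp (hepcidin, the iron hormone; 2.89), Agt (angiotensinogen; 1.78), C3 (the central complement protein; 1.78) and Lbp (which binds lipopolysaccharide; 1.21) rose as well. Of 10 negative acute phase genes, which fall in inflammation, 4 rose and 0 fell in the No-Trp livers, Ahsg (2.702), Kng1 (2.07), Rbp4 (1.80) and Ttr (1.76), with a median of 1.78. Positive and negative members thus rose side by side, while Saa1 and Saa2 fell. In the xenografts 2 of 20 other positive genes were higher, Steap4 (2.53, SE 0.33, adjusted p = 0.0259) and Lrg1 (2.44, SE 0.27, adjusted p = 0.0137), and 0 lower, with a median of −0.03. Serpina3n stood at 2.89 to 15.2 CPM in the control and at 62.0 to 141 CPM in the No-Trp xenografts (3.63, adjusted p = 0.0669). Of the negative genes 0 of 10 were called in the xenografts by edgeR, none of them with an unadjusted p under 0.05. The difference between the models was called for Apcs (−5.87, adjusted p = 0.00623) and Hamp (−3.64, adjusted p = 0.00773).

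Of the upstream cytokines, Il6, Il11 and Il22 were too low to be tested in the livers. Il6 was at 0 to 0.483 CPM in the control and at 0.114 to 0.389 CPM in the No-Trp livers, and Il1b was at 3.49 to 7.95 against 2.40 to 6.89 CPM (0.0019, adjusted p = 0.998). Of the 7 tested 1 rose, Ctf1, a cytokine of the interleukin 6 family (2.07, adjusted p = 0.0198), and 0 fell. In the xenografts 0 of 9 tested cytokines were called by edgeR, and none had an unadjusted p under 0.05. Il6 there was at 0.637 to 3.19 against 2.76 to 3.48 CPM (0.73, adjusted p = 0.539).

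Receptors and transcription factors of the response were taken next. Of 16 receptor and signalling genes, 4 rose and 0 fell in the No-Trp livers, the interleukin 6 receptor Il6ra (1.80, adjusted p = 0.0426), the interleukin 1 receptor Il1r1 (1.66, adjusted p = 0.0280), the gp130 gene Il6st (1.17, adjusted p = 0.0361) and Tnfrsf1a (1.11, adjusted p = 0.0187). Socs3, a feedback target of STAT3, was at 8.17 to 27.2 against 11.6 to 18.9 CPM (−0.20, adjusted p = 0.764). Of 12 transcription factors 3 rose and 0 fell, Cebpb (1.904, SE 0.27, adjusted p = 0.0142), Creb3l3 (1.05, adjusted p = 0.0375) and Cebpa (1.04, adjusted p = 0.0355). In the xenografts 0 of the 16 receptor and signalling genes were called by edgeR, and 3 had an unadjusted p under 0.05. Cebpb alone of the 12 factors was called there, and it fell (−1.25, SE 0.16, adjusted p = 0.0235), from 69.9 to 76.6 CPM in the control to 27.2 to 36.2 CPM in the No-Trp tumors. The difference between the models was −3.12 (SE 0.32, adjusted p = 0.00165). LAP is another name of C/EBPβ, the product of Cebpb, so the promoter that drives tTA in the MYC-ON mice is that of a gene that differed between the diets. Whether tTA differed was not tested, and the level of the MYC transgene was not analysed here. The paper reports lower MYC expression in MYC-ON livers on the No-Trp diet than on the control diet, still above that of wild-type livers.

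Of 9 tested genes that take up or clear these proteins or their cargo, Cd163, the macrophage receptor for haptoglobin with hemoglobin, rose in the No-Trp livers (1.38, adjusted p = 0.0331), and 0 fell. Lrp1, the receptor for hemopexin with heme, was at 161 to 460 CPM in the control and at 393 to 1180 CPM in the No-Trp livers (1.37, adjusted p = 0.0828), and Hmox1, which breaks heme down, was at 26.4 to 65.9 against 33.1 to 47.5 CPM (−0.15, adjusted p = 0.754). In the xenografts 0 of 9 were called by edgeR, and 3 had an unadjusted p under 0.05. Among these Cd163 was at 13.3 to 29.0 CPM in the control and at 60.3 to 115 CPM in the No-Trp tumors (2.29, adjusted p = 0.0551).

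**Figure D5:**
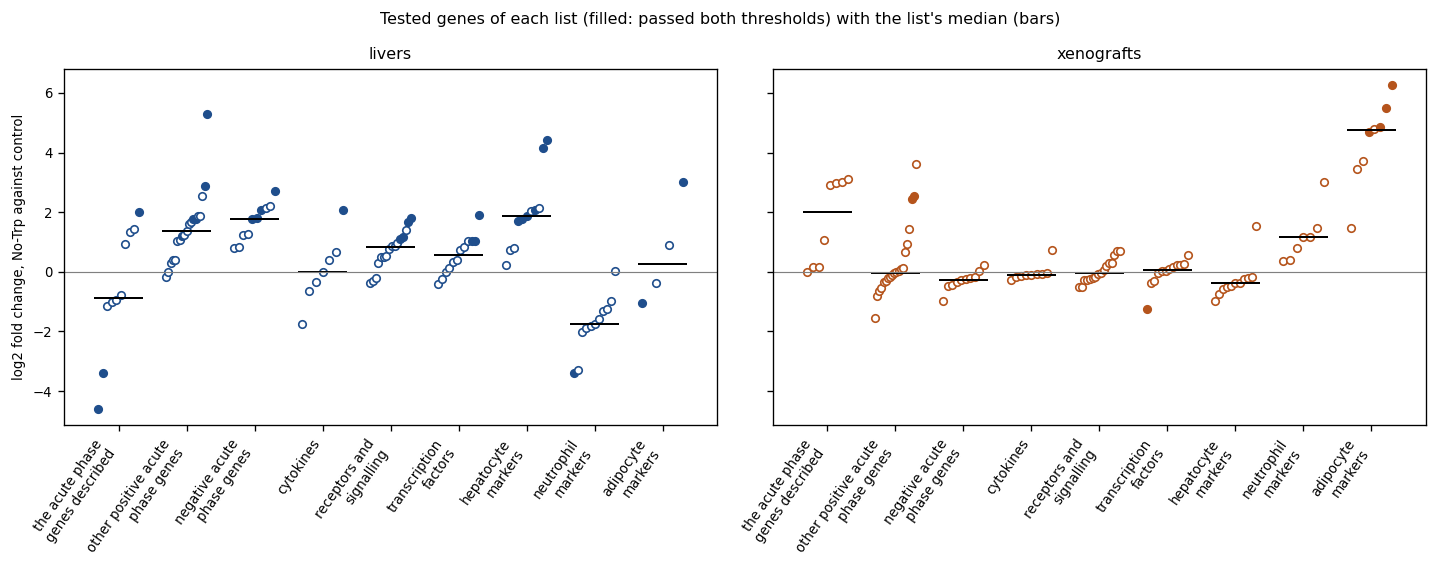
Log2 fold change, No-Trp against control, of the tested genes of each list in livers (left) and xenografts (right), with the median of the list (bars). Filled points passed both thresholds. The adipocyte markers have the highest median of the lists in the xenografts, and the hepatocyte and negative acute phase lists lie above 0 in the livers.

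Within the groups, after the mean of each group was taken away, each acute phase gene was set beside the genes most alike to it. As a description over the 12 libraries, with Pearson's r on log2 CPM, Hpx went most closely with Fetub (0.98), Msrb2 (0.97) and Cfb (0.96), and Crp with Hpd, Uox and Slc27a5 (0.98 each), of which Fetub, Cfb, Hpd, Uox and Slc27a5 are products of hepatocytes. Orm1 went with Cyp2j6 (0.97), Vangl1 and Serping1 (0.95 each), Saa4 with C8b (0.91), Top3b and Mup20 (0.90 each), and Hp with Cd1d1, Hopx (0.95 each) and Suox (0.94). Lcn2 went with S100a10 (0.93), Cd52 (0.90) and Manba (0.88), and Saa3 with Supv3l1, Hspa14 (0.96 each) and Pgm1 (0.94). Saa1 went with Heg1 (0.96), Sox18 and Extl3 (0.95 each), Saa2 with Rnf26 (0.95), Mmp12 (0.93) and Esam (0.92), and Orm2 with Phf6 (0.95), E2f7 and E2f2 (0.94 each), all 3 members at low counts. Between the members themselves, Hpx and Crp (0.78) and Saa4 and Crp (0.70) were the most alike, while Lcn2 and Orm1 were the least alike (−0.68). Saa1 and Saa2, whose coding sequences are nearly the same, reached 0.47, at the few reads they had. The points share libraries and hence the depth and cell makeup of each mouse. Each partner is among the highest of all genes of at least 100 mean counts, which by itself favours a high r. No chance level was worked out, so no shared regulation is read from these values.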

How the data were processed

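RNA-seq libraries of 6 MYC-ON livers and 6 HCC53N xenografts were used, 1 per mouse. The files hold raw counts of reads for each gene symbol, as deposited. The authors obtained them by trimming (Trim Galore), alignment to mm10 (STAR 2.7.2b in the submitters' processing notes) and counting (HTSeq, strand setting not given in the sources used here). Reads not counted on genes (24.7% to 39.4%, of which 5.24% to 8.52% of all aligned to several places) were left out of library sizes, which lowers genes with close copies.

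Diets and models were compared with the quasi-likelihood F test of edgeR 4.0.16 (R 4.3.3), two-sided, with TMM factors, filterByExpr at a minimum count of 10 and robust glmQLFit, each model on its own for the diets and all 12 libraries together for the models and the interaction. P-values were adjusted over all genes tested (Benjamini-Hochberg) and measure the spread between these mice, and a call needed an adjusted p no higher than 0.05 and a change of 1 or more on the log2 scale.

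The 10 genes and all lists were chosen with earlier results of these data known. Named genes are the members, the genes called in each list (up to 4 with the largest change, more where a counted group is named whole), the 3 of highest level, and the 3 genes of at least 100 mean counts most alike to a member (log2 CPM, prior count 2). Others, such as Socs3 and Serpina3n, were named after their values were seen. Ly6g was not matched and Adgre1 was read as Emr1. A further gene is not reported here. The edgeR diet comparison of each model and the interaction were tested on simulated counts, and the other steps were not. The alternatives were DESeq2 1.42.0, other scalings, filters and sets of samples, the mark of resubmission as a covariate, no fold threshold, and leaving out Rn45s or each library. Fits without the 4 marked libraries and summed copies were added after the data were seen.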

Additional observations from a re-analysis of the deposited data

Results flagged for a closer look

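The diet effect differed between the models, by the interaction term of edgeR over all 12 libraries, for 4 of the 10 acute phase genes. The difference of the log2 fold changes, xenografts minus livers, was 6.56 for Saa1, 9.02 for Saa2, 4.11 for Saa3 and 3.79 for Orm1. Of all 15472 genes tested 6.7% were called in this direction. Saa1 and Saa2 passed the filter only with the control livers, which favours this direction, so nothing is read from the count of 4. Orm1 lost its call without liver 105 or 107 or xenograft 36, 37, 40 or 43 and with the mark of resubmission as a covariate (adjusted p = 0.0790), and the sum of the orosomucoids gave 1.99 (adjusted p = 0.127). In the livers, Saa1 and Saa2 were lower in 3 of 3 No-Trp mice than in every control mouse, against 25.0% of all genes tested. Saa3 and Orm1 overlapped there. In the xenografts all 4 genes were higher in 3 of 3 No-Trp mice than in every control mouse, against 10.8% of the genes tested. Saa1 and Saa2 were not among the genes tested in the xenografts alone. The adipocyte markers were higher in the same tumors. The part of host cells in these differences was not tested.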

How the results depend on the processing

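No paired analysis was possible because the groups share no mouse numbers. Library totals in place of TMM factors moved the median of all genes to −0.30 in the livers and 0.11 in the xenografts. Of all genes, 1311 were called higher and 1026 lower in the livers, against 1649 and 1397 with DESeq2, 732 and 1532 with library totals, 7 and 1 without control liver 103 and 0 and 0 without the 4 marked libraries. In the xenografts these counts were 36 and 17, 250 and 130 with DESeq2, 60 and 11 with library totals, 3 and 1 with resubmission as a covariate and 0 and 0 without the marked libraries. Of the acute phase genes, those called higher in the livers numbered 1, and 3 with DESeq2, 0 with library totals, 0 in one fit over all libraries, 0 without the 4 marked libraries and 0 to 3 when 1 library was left out. Genes called lower there numbered 2, and 0 with at least 10 counts in every library (which removes Saa1 and Saa2), 0 without the marked libraries and 0 to 2 when 1 library was left out. In the xenografts 0 were called higher, and 5 with DESeq2, 1 each with RLE factors, library totals, no filter and Rn45s left out, and 0 to 2 when 1 library was left out. The interaction called 4 higher, 1 with at least 10 counts in every library and 0 without the marked libraries. On the No-Trp diet 2 genes were higher in the xenografts, and 1 with RLE factors, at least 10 counts, resubmission as a covariate, only the 6 libraries of that diet and Rn45s left out, and 1 to 2 when 1 library was left out. The cause of these moves was not tested.

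The log2 fold change of Orm1 in the livers turned to 0.62 without control liver 102 (range without 1 library −1.19 to 0.62). In the xenografts, Saa4 turned to −0.18 without No-Trp xenograft 36 (range −0.18 to 0.50). Hpx turned to −0.90 both with resubmission as a covariate and without the marked libraries, and to −0.11, −0.04, −0.16 and −0.21 without xenografts 35, 36, 41 and 43 (range −0.21 to 1.28). Crp, near 0 in the main fit, turned to 0.0035 with DESeq2, 0.0107 with RLE factors, 0.0114 with no filter, 0.0102 with Rn45s left out, 0.12 with library totals, 0.0250 with at least 10 counts, 0.0581 in one fit, and 0.38, 0.22 and 0.34 without xenografts 37, 43 and 40 (range −0.44 to 0.38). Saa1 between the models on the No-Trp diet turned to 0.0195 with library totals. None of these values passed the threshold. Of 873 fold changes under alternatives, 769 kept their direction and their side of the threshold, 61 lost a call, 24 gained one and 19 turned. With 3 mice per group and few reads of Saa1 and Saa2, small differences were not detectable at this depth.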
